A study of Mus musculus with 18 samples.

Results

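Cytl1, Mia, Snorc, Ucma, Chad and Scrg1 encode small proteins that cartilage cells make beside the large collagens and aggrecan, and their transcripts were followed here in mouse ear cartilage from the second to the fifth week of life. The members were chosen by gene name, which gives 6 of the 46983 genes in the deposited table, where Snorc stands under its older symbol 3110079O15Rik. Lipochondrocytes, the lipid-storing cells of the ear cartilage plate, were sampled on postnatal days 8, 10, 13, 21 and 33 (P8 to P33) for RNA sequencing. Adipocytes from inguinal fat of P33 mice served as the control cells, and each of the 6 groups had 3 libraries. The labels give every group, adipocytes included, the genotype Wnt1-Cre2;TdTomato on C57BL/6. In such mice Cre is active in the neural crest lineage, where it switches on the red reporter. Cells of P8, P10 and P13 were sorted for high TdTomato after collagenase digestion, whereas the older lipochondrocytes (P21, P33) and the fat cells were taken as the fraction that floated after centrifugation. Age and isolation therefore change together between P13 and P21 and cannot be told apart there. The labels do not say whether the 3 libraries of a group came from separate animals or from pools, so p-values measure the spread between these libraries.

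Chondrocytes surround themselves with a matrix of type II collagen fibrils and aggrecan, and they also secrete many smaller proteins that bind these fibrils, the cell surface or calcium. Cytl1 (cytokine-like 1) and Mia, also known as cartilage-derived retinoic acid-sensitive protein, are small secreted proteins, and Mia has an SH3-like fold. Snorc is a small membrane-spanning proteoglycan of cartilage. Ucma, also called Gla-rich protein, is a secreted protein whose glutamates are carboxylated by a vitamin K-dependent enzyme. Chad (chondroadherin) is a leucine-rich repeat protein that binds collagen and integrins, and Scrg1 (stimulator of chondrogenesis) is a small secreted protein.

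Levels are in FPKM, fragments per kilobase of gene and of library size, so that genes can be compared per length. Mean values are given ± SD over the 3 libraries of a group. Differences are on the log2(FPKM + 1) scale with a standard error (SE), which understates changes of low genes, and a gene is said to have risen or fallen where limma's adjusted p, over the 13815 genes tested, was below 0.05. The libraries held 12461965 to 27640142 reads, and 73.19% to 84.44% of reads aligned. Alignment was lower in the buoyant cells than at P13, at 82.28% to 84.15% in P13, 75.54% to 79.37% in P21 and 73.19% to 76.81% in P33 libraries. Over all sorted libraries it was 77.44% to 84.44%, which overlaps the P21 range. The part of alignment in the changes from P13 to P21 was not tested. The cartilage markers Col2a1, Acan, Sox9, Col9a1 and Col11a2 were above 0 in all 15 lipochondrocyte libraries, while Matn1 was listed at 0 in the P21 and P33 libraries. The 6 cartilage markers summed to 5198 to 8037 FPKM in the sorted groups, to 2004 to 2441 at P21 and to 513 to 842 at P33, against 0.78 to 0.82 in adipocytes. Col2a1 was the largest part of this sum at P13, at 4247 ± 493 FPKM, and was at 929 ± 76 at P21. Of the 5 tested, 2 fell and 3 were not called from P13 to P21, against 7.04% of all genes that fell. Acan was at 130 ± 22 and 206 ± 66 FPKM there. From P21 to P33, 4 of the 5 fell, against 7.17% of all genes. The 7 adipocyte markers summed to 0.68 to 2.36 FPKM in the sorted groups, 16.2 to 23.7 at P21 and 6.38 to 7.58 at P33. In adipocytes they summed to 84982 to 90497 FPKM. From P13 to P21, 6 of the 7 rose, against 36.0% of all genes. Endothelial markers (6 genes) stayed at 1.59 to 8.35 and keratinocyte markers (4 genes) at 0.37 to 2.33 FPKM in lipochondrocytes, while macrophage markers (6 genes) were at 2.13 to 4.90 in the sorted and 15.2 to 53.8 in the buoyant libraries. Of 6 skeletal muscle markers the sum was 5.32 to 35.9 FPKM in sorted cells and 24.5 to 502 in P21 and P33 cells, with the highest sums in P21 replicates 1 and 3 and P33 replicate 3. Bulk RNA cannot tell fewer cells of a type from less RNA per cell.

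The 6 genes fell into distinct levels and time courses. Cytl1, Mia and Snorc were abundant at every stage. Ucma and Chad were moderate in the sorted cells and more than 20 times higher at P21, and Scrg1 was low throughout and lowest at P33. Together the 6 genes made up 1.31% to 1.71% of the FPKM of a library at P8, 1.30% to 1.32% at P10, 2.11% to 2.399% at P13, 1.76% to 2.49% at P21 and 2.08% to 2.64% at P33. Within a library Cytl1 exceeded Mia, and Mia exceeded Snorc, in all 15 lipochondrocyte libraries. Mia exceeded Chad in 14 of 15, and in P33 replicate 3 Chad (3432 FPKM) was above Mia (3144 FPKM). Snorc exceeded Chad in all 9 sorted libraries and in 4 of the 6 buoyant ones, and Chad exceeded Ucma in 14 of 15. Scrg1 was the lowest of the 6 in every one of the 15.

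**Figure D1:**
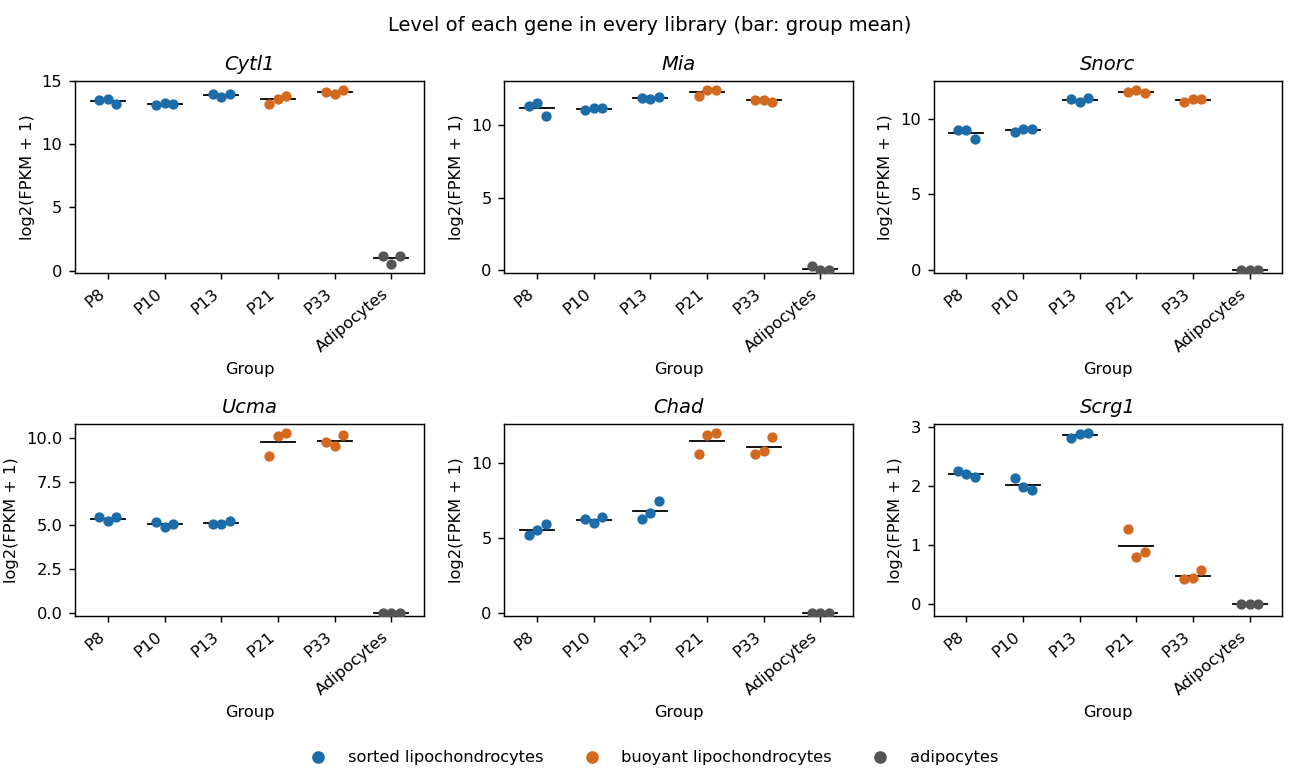
Level of each gene, as log2(FPKM + 1), in each of the 18 libraries (points; 3 per group) with the group mean as a bar; the vertical scale differs between panels. Cytl1, Mia and Snorc are high at all stages, Ucma and Chad step up between P13 and P21, Scrg1 steps down there, and the adipocyte libraries are at or near 0.

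Cytl1 (ENSMUSG00000062329.4, chromosome 5:37735519-37739820, plus strand, of GRCm38; 3 or 4 exons by transcript) was the most abundant of the group. It read 11655, 12618 and 9457 FPKM in the P8 libraries, 8873, 9847 and 9669 at P10, and 16337, 14234 and 16576 at P13. At P21 the libraries held 9542, 12539 and 14987, and at P33 18569, 16368 and 20673 FPKM. The transcript ranked between place 5 and place 19 of all genes in each lipochondrocyte library and took 0.876% to 1.76% of its FPKM. In order of mean level the stages ran P33, P13, P21, P8 and P10, and each overlapped its neighbour in that order. The P13 libraries all lay above the P10 libraries, and the mean rose from 9463 ± 518 to 15716 ± 1289 FPKM (log2 difference 0.73, SE 0.20, adjusted p = 1.50e-02). That rise lost its call when libraries were rescaled by the median of ratios (0.45, adjusted p = 1.79e-01), with a pseudocount of 0.1 (adjusted p = 7.00e-02), without P10 replicate 1 (adjusted p = 5.89e-02) or without P13 replicate 3 (adjusted p = 5.25e-02). From P21 to P33 the ranges did not overlap, at 12356 ± 2728 and 18537 ± 2153 FPKM, and the difference of 0.60 (SE 0.20, adjusted p = 6.65e-02) did not pass, although it did without P21 replicate 3 (0.75, adjusted p = 3.52e-02).

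Mia (ENSMUSG00000089661.9, chromosome 7:27179742-27181157, minus strand; 3 or 4 exons) was next in level. It read 2526, 2962 and 1608 FPKM at P8, 2115, 2370 and 2334 at P10, and 3872, 3637 and 3962 at P13. The P21 libraries held 4085, 5536 and 5420 FPKM, and the P33 libraries 3520, 3468 and 3144. Every P21 library was above every other library, and P13, P33 and the pair of P8 and P10 followed without overlap. Mia rose from P10 to P13, from 2273 ± 138 to 3824 ± 168 FPKM (0.75, SE 0.18, adjusted p = 9.40e-03), but not by the call under median-of-ratios scaling (0.47, adjusted p = 1.60e-01) or with a pseudocount of 0.1 (adjusted p = 1.13e-01). The differences of P21 from P13 (0.38, SE 0.18, adjusted p = 1.12e-01) and of P33 from P21 (-0.56, SE 0.18, adjusted p = 7.13e-02) did not pass. Without P21 replicate 1, the lowest of its group, both did, at 0.52 (adjusted p = 4.61e-02) and -0.70 (adjusted p = 3.85e-02), and under median-of-ratios scaling the first turned to -0.07 (adjusted p = 8.42e-01). The gene shares 410 exonic bases with Gm21983 on the same strand, which held at most 10.8 FPKM in any library, and how reads there were assigned is not given in the sources used here.

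Relatives of Mia did not share its level. Otor, the family member known from the inner ear, was at 0.237 ± 0.13 FPKM at P8, 0.517 ± 0.24 at P10, 1.09 ± 0.19 at P13, 4.19 ± 2.1 at P21 and 0.920 ± 0.40 at P33, and it was listed at 0 in adipocytes. Like Mia it had its highest mean FPKM, as deposited, at P21, although the difference of Mia from P13 did not pass. Otor rose from P13 to P21 (1.21, SE 0.26, adjusted p = 1.98e-03) and then fell by P33 (-1.35, SE 0.26, adjusted p = 4.14e-03). Mia3, a large cargo receptor for collagen export, was at 13.5 ± 1.8 FPKM at P33 and 18.3 ± 3.3 in adipocytes, and Ctage5, its partner, at 9.66 ± 3.9 and 27.2 ± 3.8. Mia2 did not exceed 0.06 FPKM in any library.

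Snorc (3110079O15Rik, ENSMUSG00000026258.5, chromosome 1:87470271-87475482, plus strand; 3 exons) made its step within the sorted stages. It read 597, 608 and 409 FPKM at P8 and 549.6, 621 and 631 at P10, and then 2513, 2145 and 2576 at P13. The P21 libraries held 3514, 3774 and 3223 FPKM and the P33 libraries 2138, 2473 and 2557. P8 and P10 overlapped, as did P13 and P33, and the 3 P21 libraries stood above all others. The mean rose 4.01-fold from P10 (601 ± 45) to P13 (2411 ± 233), a log2 difference of 2.00 (SE 0.14, adjusted p = 3.14e-07), and this rise was place 66 among all rises of that comparison. The rank of Snorc in a library went from 238 to 274 at P8 and P10 to 65 to 73 at P13. It rose further to 3504 ± 275 FPKM at P21 (0.54, SE 0.14, adjusted p = 6.91e-03) and fell to 2389 ± 222 at P33 (-0.55, SE 0.14, adjusted p = 2.23e-02). Neither of these smaller changes kept its call with median-of-ratios scaling (at 0.09, adjusted p = 7.51e-01, and -0.50, adjusted p = 9.38e-02). The fall was also lost with P21 and P33 modelled alone (adjusted p = 2.26e-01), and without P21 replicate 1 (adjusted p = 5.10e-02), P21 replicate 2 (adjusted p = 9.04e-02) or P33 replicate 1 (adjusted p = 8.68e-02).

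Ucma and Chad both stepped up from P13 to P21, and the sequence before each start is shown for that reason. Ucma (ENSMUSG00000026668.10, chromosome 2:4976122-4985748, plus strand) has 3 to 5 exons by transcript. Chad (ENSMUSG00000039084.8, chromosome 11:94565047-94569127, plus strand; 4 exons) lies wholly within the span of Acsf2 on the other strand. No exonic base is shared (0 of them), Acsf2 held 1.29 to 13.9 FPKM, and whether the counting used strand is not given. Each line gives the 250 bases before the start site on the gene's strand, from RefSeq on GRCm38.p6, at chr2:4975872-4976121 for Ucma and chr11:94564797-94565046 for Chad. Capitals mark TATAAA, the TATA box, searched on the gene's strand.
Ucma: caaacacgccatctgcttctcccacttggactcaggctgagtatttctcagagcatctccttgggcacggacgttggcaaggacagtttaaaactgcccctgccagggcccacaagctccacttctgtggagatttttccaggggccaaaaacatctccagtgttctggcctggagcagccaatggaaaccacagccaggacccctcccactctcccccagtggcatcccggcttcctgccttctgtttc
Chad: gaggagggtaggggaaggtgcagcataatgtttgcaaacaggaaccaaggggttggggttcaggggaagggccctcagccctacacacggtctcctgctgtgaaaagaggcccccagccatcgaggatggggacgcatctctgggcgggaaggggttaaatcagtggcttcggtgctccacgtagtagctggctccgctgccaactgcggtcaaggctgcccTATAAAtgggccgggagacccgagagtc
The Chad window holds TATAAA once, with its first base 28 bases before the start, and the Ucma window does not hold these letters, which 7.59% of 32851 RefSeq windows of this length do. The Sox-type letters ACAAAG and AACAAT, searched on both strands and present in 16.5% and 9.42% of all windows, are in neither of the pair. They are also absent from the windows of Cytl1 and Mia. RefSeq windows were matched for 4 of the 6 members, Cytl1, Mia, Ucma and Chad.

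Ucma read 42.7, 36.2 and 42.8 FPKM at P8, 34.96, 29.0 and 33.1 at P10, and 32.7, 33.1 and 37.7 at P13. It then held 507, 1088 and 1229 FPKM at P21 and 873, 754 and 1136 at P33. The 3 sorted stages overlapped in part, and every buoyant library was more than 10 times above every sorted one. From 34.5 ± 2.8 FPKM at P13 the mean went to 941 ± 383 at P21, 27.3-fold (log2 difference 4.63, SE 0.25, adjusted p = 3.00e-09), and to 921 ± 196 at P33 (0.05, SE 0.25, adjusted p = 9.54e-01). Its differences of P10 from P8 (-0.32, adjusted p = 4.34e-01) and of P13 from P10 (0.09, adjusted p = 8.55e-01) did not pass.

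Chad read 35.9, 45.0 and 60.0 FPKM at P8, 77.7, 62.0 and 83.1 at P10, and 77.7, 101 and 175 at P13. The P21 libraries held 1551, 3717 and 4000 FPKM, and the P33 libraries 1532, 1783 and 3432. All P10 libraries were above the P8 libraries, P10 and P13 overlapped, and P21 and P33 overlapped far above both. The mean rose 26.2-fold from 118 ± 51 at P13 to 3089 ± 1340 at P21 (4.67, SE 0.38, adjusted p = 2.46e-07), and the 2249 ± 1032 FPKM at P33 did not differ by the test (-0.43, SE 0.38, adjusted p = 5.58e-01). The earlier differences were 0.67 for P10 against P8 (SE 0.38, adjusted p = 2.64e-01) and 1.25 for P13 against P8 (SE 0.38, adjusted p = 8.41e-02). Among all rises from P13 to P21, Chad was place 19 and Ucma place 20. By rank in a library, Chad went from 516 to 789 at P13 to 40 to 97 at P21, and Ucma from 1346 to 1416 to 121 to 254.

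Within the buoyant groups both genes varied between libraries, and other transcripts varied with them. P21 replicate 1 was the lowest of its group for Ucma and Chad, and P33 replicate 3 was the highest of its group for both. The 8 fibroblast and perichondrium markers, all above 0 in every library, summed to 5256, 8045 and 9699 FPKM in the P21 libraries and 6070, 5131 and 9263 at P33, against 2125 to 2787 at P13. They stood at 3568 to 5002 at P8 and 6376 to 8476 at P10, where Ucma and Chad were low. Within P21 and within P33 the order of the libraries by this sum was that of Ucma, and also that of Cytl1. Chad followed it at P21 but not at P33. The 6 cartilage markers ran in the reverse order, summing to 2441, 2300 and 2004 FPKM at P21 and 717, 842 and 513 at P33. Col1a1 and Col1a2 were the largest parts of the fibroblast and perichondrium sum at P21, at 3171 ± 1166 and 3237 ± 986 FPKM. From P13 to P21, 3 of the 8 markers rose and 2 fell, against 36.0% and 7.04% of all genes. The rises were thus close to the share over all genes. Postn went from 102 ± 18 to 38.5 ± 12 FPKM. The part of fibroblast and perichondrium cells in the result was not tested. The rise from P13 to P21 of both genes was called without each library of these groups in turn, and without the 3 libraries with the most muscle RNA.

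**Figure D2:**
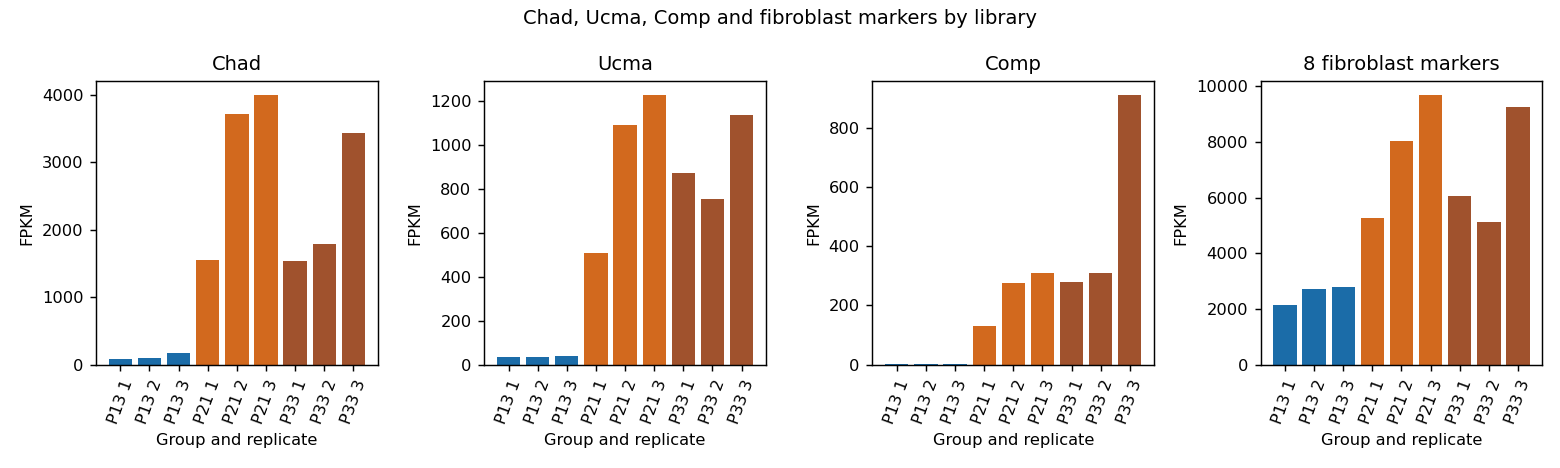
FPKM of Chad, Ucma and Comp and the summed FPKM of 8 fibroblast and perichondrium markers in each P13, P21 and P33 library (bars; the number is the replicate). Chad and Ucma are lowest in P21 replicate 1 within their group and highest in P33 replicate 3 within theirs, as are Comp and the summed markers.

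Scrg1 (ENSMUSG00000031610.3, chromosome 8:57455923-57477585, plus strand; 3 exons) had the lowest level of the 6 genes. It read 3.77, 3.58 and 3.42 FPKM at P8, 3.40, 2.95 and 2.83 at P10, and 5.97, 6.31 and 6.44 at P13. The P21 libraries held 1.41, 0.74 and 0.85 FPKM, and the P33 libraries 0.35, 0.37 and 0.49. No pair of stages overlapped, in the order P13, P8, P10, P21 and P33. Scrg1 rose from 3.06 ± 0.30 FPKM at P10 to 6.24 ± 0.24 at P13 (log2 difference 0.84, SE 0.11, adjusted p = 1.33e-04). It fell to 1.00 ± 0.36 at P21 (-1.87, SE 0.11, adjusted p = 8.61e-09), which is 6.24-fold lower by the means, and to 0.403 ± 0.076 at P33 (-0.50, SE 0.11, adjusted p = 9.74e-03). The last step lost its call with P21 and P33 modelled alone (adjusted p = 1.75e-01) and without the 3 libraries richest in muscle RNA (-0.36, adjusted p = 1.06e-01).

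Against adipocytes all 6 genes were higher at every stage, where the share of genes called higher was 19.3% at P8, 16.8% at P10, 17.8% at P13, 24.5% at P21 and 24.0% at P33. None of the 6 reached 1 FPKM in all 3 adipocyte libraries, so each needed lipochondrocyte libraries to pass the filter on low values. The count thus follows largely from the filter and is a description that supports nothing. Scrg1 stayed below 1 FPKM at P33 and passed through earlier stages. Cytl1 was the only member above 0 in every adipocyte library, at 1.25, 0.46 and 1.26 FPKM. Its mean level was 9558-fold (P10) to 18724-fold (P33) that of adipocytes. Mia was listed at 0.2 FPKM in one adipocyte library and at 0 in the other two. Snorc, Ucma, Chad and Scrg1 were listed at 0 in all 3. None of 8 genes used by every cell, such as Actb and Tbp, was at 0 there, which does not show whether lower transcripts were detected. For Scrg1 the smallest difference was at P33, between 0.35 to 0.49 FPKM and 0. The 5 comparisons share the adipocyte libraries. No other tissue was measured, so restriction to cartilage was examined only against these adipocytes.

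Between stages the members changed in different intervals. From P8 to P10 none of the 6 was called, where limma called 11.0% of genes, and 0 had an unadjusted p below 0.05 (2 under median-of-ratios scaling and 2 with P8 and P10 modelled alone, with 0 called in both). From P10 to P13, 4 rose (Cytl1, Mia, Snorc and Scrg1) against 18.6% of all genes called higher, and 2 of them, Snorc and Scrg1, under median-of-ratios scaling, which moved the all-gene median from 0.15 to 0 and the split of calls from 2567 higher and 557 lower to 1125 and 1183. In that interval 7 of the 8 fibroblast and perichondrium markers fell (median -1.47 against 0.15 over all genes), from sums of 6376 to 8476 FPKM to 2125 to 2787, and their part in the members' rises was not tested. From P13 to P21, Snorc, Ucma and Chad rose and Scrg1 fell, against 36.0% and 7.04% of genes. There the scaling moved the all-gene median from 0.29 to 0.01 and the split of calls from 4977 and 972 to 2212 and 2214. The rises were then those of Ucma and Chad, and Cytl1 fell beside Scrg1 (-0.82, adjusted p = 9.37e-03; as deposited -0.37, SE 0.20, adjusted p = 1.44e-01). From P21 to P33, Snorc and Scrg1 fell and none rose, against 7.17% and 2.87% of genes. For P13 against P8, both sorted, Mia (0.74, SE 0.18, adjusted p = 3.43e-02), Snorc (2.18, SE 0.14, adjusted p = 6.53e-07) and Scrg1 (0.66, SE 0.11, adjusted p = 2.46e-03) rose, against 2.69% of genes. The Mia call was lost in 5 of the 6 fits that left out 1 library, all but that without P8 replicate 2.

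**Figure D3:**
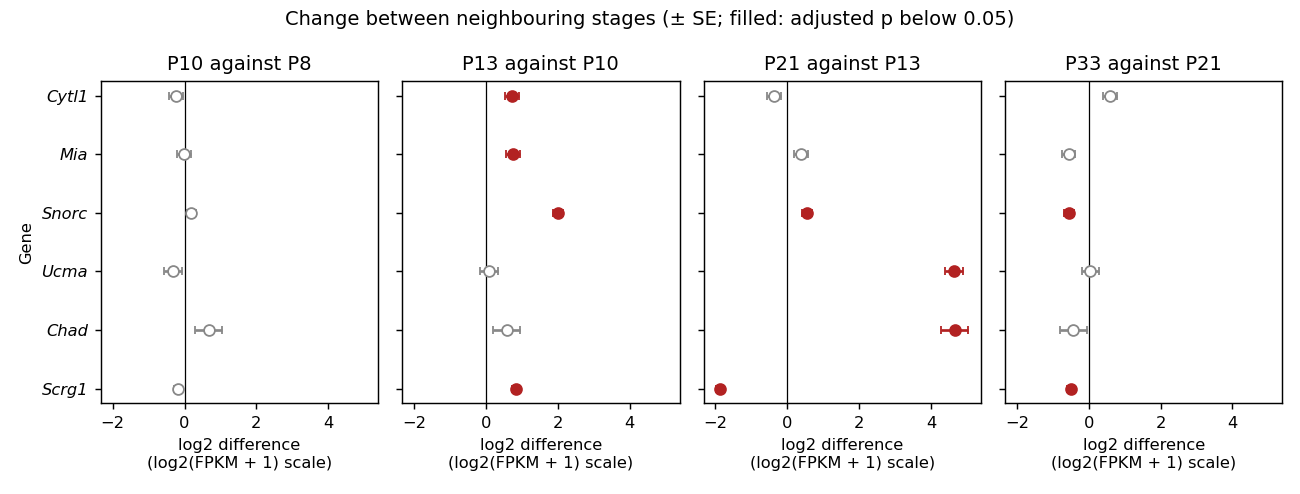
Log2 difference of each gene between neighbouring stages, on the log2(FPKM + 1) scale, with its SE; filled points passed an adjusted p of 0.05. No gene is called from P8 to P10, Snorc leads from P10 to P13, and Ucma and Chad rise by 4.63 and 4.67 from P13 to P21 while Scrg1 falls.

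Other cartilage matrix genes also split between P13 and P21. Of 25 listed, 24 passed the filter, of which 8 rose and 11 fell, against 36.0% and 7.04% of all genes. The rises were thus close to the share over all genes. Under median-of-ratios scaling 8 rose and 13 fell, to be read beside the scaled all-gene split given above. The median difference of the 24 was -0.43 against 0.29 over all genes. The steps of Ucma and Chad lay below those of Cilp2 and Comp, which encode cartilage intermediate layer protein 2 and cartilage oligomeric matrix protein. Comp read 0.943 ± 0.16 FPKM at P13, 237 ± 95 at P21 and 499 ± 358 at P33 (P21 against P13 6.84, SE 0.36, adjusted p = 3.05e-09). Cilp2 read 1.16 ± 0.12, 309 ± 149 and 316 ± 219 FPKM (7.04, SE 0.39, adjusted p = 4.50e-09). Fmod, a collagen-binding leucine-rich proteoglycan, rose by 2.96 and Matn4 by 2.33. Col2a1, the fibril collagen, fell from 4247 ± 493 to 929 ± 76 FPKM (-2.19, SE 0.17, adjusted p = 1.60e-07) and again to 223 ± 30 at P33 (-2.06, SE 0.17, adjusted p = 2.96e-06), where Cytl1 and Mia remained among the 64 most abundant genes of each library. From P21 to P33, 4 matrix genes rose and 10 fell (4 and 8 under the scaling), against 2.87% and 7.17% of all genes. Col9a2 (-2.61), Col2a1 and Col9a1 (-1.98) had the largest falls and Vit (1.73) the largest rise.

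**Figure D4:**
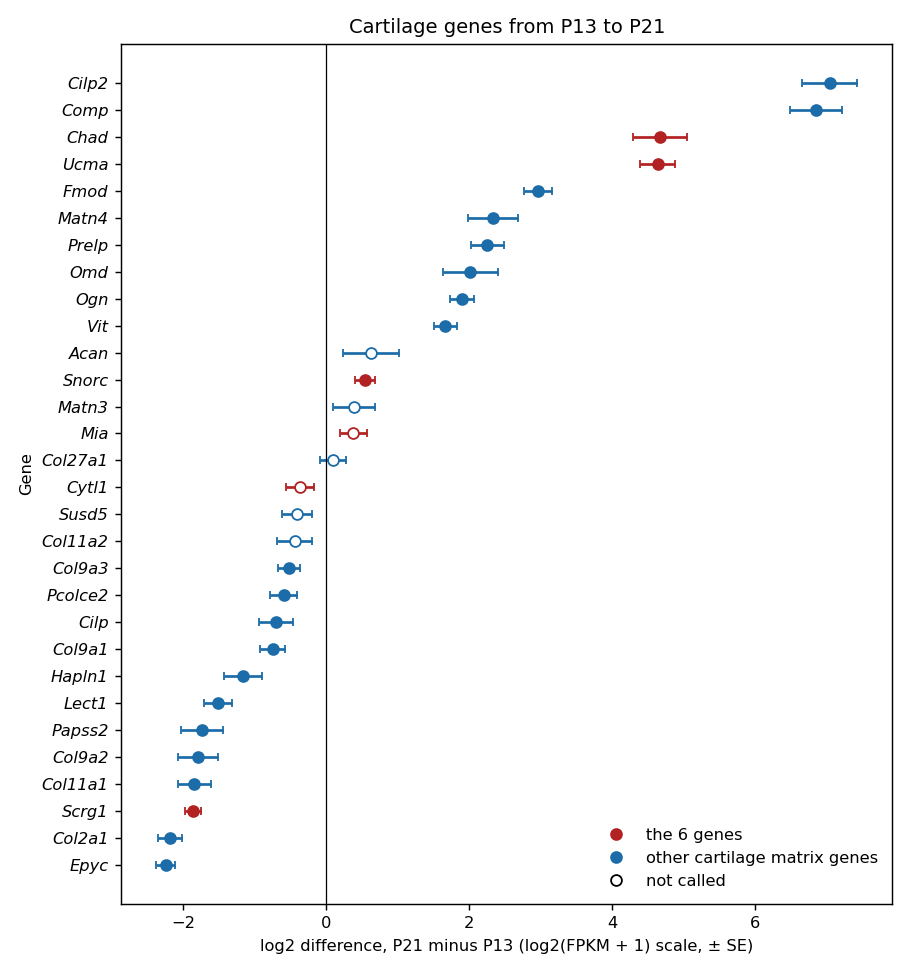
Log2 difference between P21 and P13, with its SE, of the 6 genes (red) and 24 other cartilage matrix genes (blue) on the log2(FPKM + 1) scale; open points did not pass. Cilp2 and Comp are at the top with Chad and Ucma next, Cytl1, Mia and Snorc near the middle, and Scrg1 among the falls beside Col2a1.

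From P10 to P13, 9 of the 24 matrix genes rose as deposited, against 18.6% of all genes, and 3 fell. Under median-of-ratios scaling 5 rose and 4 fell. For the falls and for the scaled fit, the all-gene counts are those given above for this interval. The largest rises were those of Omd (2.53, SE 0.38, adjusted p = 3.33e-04), a keratan sulfate proteoglycan, and Epyc (1.59, SE 0.13, adjusted p = 1.52e-06), followed by Prelp (1.27) and Col27a1 (1.19). Snorc rose by 2.00 in the same interval, and Epyc, like Scrg1, fell from P13 to P21 (-2.25, SE 0.13, adjusted p = 7.65e-09). Of the Sox factors of chondrocytes, none was called from P10 to P13. From P13 to P21 Sox6 fell (-1.01, SE 0.29, adjusted p = 1.24e-02), and Sox9, the main chondrocyte factor, was at 239 ± 50 and 206 ± 25 FPKM, a difference of -0.20 (adjusted p = 5.03e-01) that was called under the scaling (-0.65, adjusted p = 1.83e-02). Sox9 fell from P21 to 120 ± 47 FPKM at P33 (-0.83, SE 0.22, adjusted p = 2.56e-02).

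Enzymes and partners tied to Ucma and Chad were read beside them. Of 13 genes of vitamin K-dependent carboxylation and its substrates, 11 passed. From P13 to P21, 5 of these rose and 1 fell as deposited, close to the 36.0% and 7.04% of all genes. Under median-of-ratios scaling 4 rose and 3 fell, to be read beside the scaled all-gene split given above. Mgp, the Gla protein that inhibits calcification, went from 3948 ± 718 FPKM at P13 to 11711 ± 2678 at P21 (1.56, SE 0.29, adjusted p = 6.78e-04), and Gas6, another Gla protein, from 48.0 ± 5.1 to 126 ± 14 (1.37, SE 0.15, adjusted p = 6.02e-06). Ggcx, the carboxylase itself, took the other direction, with 15.2 ± 1.4 FPKM at P13, 10.47 ± 0.79 at P21 and 4.23 ± 0.21 at P33 (-0.49, adjusted p = 3.21e-03, and -1.13, adjusted p = 1.87e-05). At P33 Ggcx was below the 19.96 ± 0.77 FPKM of adipocytes, which list Ucma at 0, and Vkorc1, which recycles vitamin K, was above them (316 ± 62 against 81.2 ± 2.3 FPKM, 1.93, SE 0.17, adjusted p = 1.01e-07). Vkorc1l1, of the same list, was below adipocytes at P33, at 1.27 ± 0.51 against 6.65 ± 0.95 FPKM.

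Of 5 collagen-binding integrin genes, 4 passed the filter, and Itga11 alone changed from P13 to P21 (0.65, SE 0.15, adjusted p = 3.52e-03), at 0.760 ± 0.12 and 1.78 ± 0.44 FPKM. Itgb1, the shared beta chain, was at 38.0 ± 6.7 and 43.9 ± 4.1 FPKM, and Itga10, a chondrocyte collagen receptor, at 2.93 ± 0.81 and 3.25 ± 1.4. Itga2 did not exceed 0.19 FPKM in any library. Chadl, named for its likeness to Chad, was at 18.7 ± 4.9 FPKM at P13, 34.7 ± 16 at P21 and 26.9 ± 2.3 at P33, and not called between stages. Of the other leucine-rich relatives, Tsku rose from P13 to P21 (1.01, SE 0.22, adjusted p = 2.03e-03), Podn fell from P21 to P33 (-0.74, SE 0.19, adjusted p = 2.50e-02), and Nyx and Podnl1 did not exceed 0.48 FPKM.

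Genes most like each member were taken by the highest Pearson r of log2(FPKM + 1) over the 15 lipochondrocyte libraries among 2539 genes with a mean of at least 20 FPKM at some stage. These libraries share stage and isolation, so r describes a common profile only. Cilp2 (r = 0.997), Itgbl1 (0.995) and Wfdc2 (0.994) were most like Ucma. For Chad they were Gstm1 (0.991), Tspo (0.990) and S100a16 (0.989), which unlike Chad were present in adipocytes, with Gstm1 at 63.3 ± 5.7 FPKM at P33 and 374 ± 12 in adipocytes. Snorc was most like Fxyd3 (0.968), Bambi (0.962) and Sec11c (0.961), and Fxyd3 went from 511 ± 54 FPKM at P10 to 2119 ± 130 at P13. Mia was most like Rps27l (0.970), S100a1 (0.968) and Rnasek (0.956). Scrg1 was most like Btg2 (0.986), Hspa5 (0.971) and Pcp4l1 (0.969), and Btg2, an early response gene, was at 430 ± 40 FPKM at P13 and 6.40 ± 2.3 at P21. The values for Cytl1 were lower, with Luzp1 (0.876), Pycard (0.855) and Lgals3 (0.855). Among the members themselves, r was 0.974 between Ucma and Chad and 0.910 between Mia and Snorc, and -0.923 between Ucma and Scrg1.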

How the data were processed

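Expression values are FPKM made and deposited by the authors, 1 column per library with 2 decimals. The submitters' processing notes name STAR 2.4.2a and mm10, and which quantifier and annotation followed is not given in the sources used here. Read quality came in another table deposited by the authors, with the count of reads in total and in pairs (100%) and the alignment rate in percent. Without read counts per gene there is no counting interval, and 0 FPKM does not show absence. No 2 libraries were identical (0 found).

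The 13815 genes that reached 1 FPKM in 3 or more of the 18 libraries entered the tests as log2(FPKM + 1). One limma 3.58.1 model (R 4.3.3; moderated statistics, trend on the mean) held the 6 group means over every library. Its 10 comparisons were two-sided, with Benjamini-Hochberg adjustment over genes, and the code was tested on simulated data. The members and lists were chosen with earlier results of these data known. Named genes were the members, all detected relatives, at most 4 called genes of each other list per comparison with the largest change, marker genes, and the 3 genes most like each member, leaving out Gm, Rik and mitochondrial symbols. Other genes of the lists are named with values because a partner or factor of a member was read beside it, and these were chosen after their values were seen. Coordinates are from GENCODE M21 (98.9% of identifiers matched). Alternatives were a pseudocount of 0.1, no filter, median-of-ratios scaling, only the 2 groups compared, the replicate number as a block, and each library left out in turn. Plots were drawn with matplotlib 3.10.9.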

Additional observations from a re-analysis of the deposited data

How the results depend on the processing

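FPKM hold no depth per gene, and 3 libraries a group limit what can be called. Under the alternatives run, Snorc and Scrg1 kept their calls from P10 to P13, and Ucma, Chad and Scrg1 kept theirs from P13 to P21. Median-of-ratios scaling left 2 members called from P10 to P13 and 1 from P21 to P33, called 622 genes from P8 to P10, and turned uncalled differences of P10 from P8 to 0.10 for Cytl1, 0.32 for Mia, 0.0092 for Ucma and 0.082 for Scrg1, of P13 from P10 to -0.18 for Ucma and of P21 from P13 to -0.074 for Mia. A pseudocount of 0.1 left 2 members called from P10 to P13, and no filter gave 985 genes from P8 to P10. With only the 2 groups modelled, 351 genes were called from P8 to P10, 347 for P13 against P8 and 126 from P21 to P33, where limma called 0 members (3 at an unadjusted p below 0.05). Leaving out the 3 libraries with the most muscle RNA, chosen after seeing the data, gave 894 genes and 0 members there (5 unadjusted), and Ucma turned to -0.42. Without single libraries, the genes called from P8 to P10 ran from 520 (without P10 replicate 1) to 1493, for P13 against P8 from 339 (without P13 replicate 3) to 509, from P10 to P13 from 1938 (without P10 replicate 1) to 2830, and from P21 to P33 from 906 (without P21 replicate 2) to 1802, with 1 to 3 members called there. The uncalled differences of P10 from P8 ran from -0.27 to 0.17 for Mia and from -0.0078 to 0.28 for Snorc, and that of P33 from P21 ran from -0.35 to 0.29 for Ucma. The cause of these changes was not tested. Replicate numbers did not pair the libraries (correlation above 0.1 in 13 of 45 same-number pairs, and 8 of 18 libraries correlated best with their own number). With the replicate number as a block, Chad was called for P13 against P8 (1.25, adjusted p = 1.72e-02), which gave 4 members there in place of 3 and changed no other member's call.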
